A study of Mus musculus with 40 samples.

Results

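Insig1 and Insig2 encode the 2 insulin-induced gene proteins, membrane proteins of the endoplasmic reticulum through which cells hold back their own sterol synthesis. The probes were those given the symbol Insig1 or Insig2 in the array's probe annotation, which found 1 probe for each gene, 2 of 23574 probes and 2 of 10842 named genes. Both genes were chosen on their own group differences in these 40 livers, so every Insig1 or Insig2 value below is a description and carries no p-value. Each value is the log2 ratio of 1 liver to a common liver pool, with 5 livers in each of 8 groups.

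All 40 mice were C57BL/6J, an inbred strain, kept on chow with 4% fat and killed at 14 weeks after a 12 h fast. Of the gonadectomized mice, operated at 8 weeks and given a 21-day pellet at 12 weeks, the ovariectomized females carried dihydrotestosterone (DHT), estradiol or placebo, and so did the castrated males. The remaining groups were intact females and intact males, for which the labels name no surgery and no pellet. In comparisons with intact mice, loss of the gonad therefore cannot be told apart from surgery or a pellet. DHT, an androgen that is not converted to estrogen, came as 5 mg with a stated plasma level of 1 to 2 ng/ml, and estradiol as 0.5 mg with a stated level of 300 pg/ml. Liver RNA in Cy5 was hybridized on every array against Cy3 RNA of a pool of 40 such livers, which per the labels held equal portions of each sample, and no dye was swapped. Ratios to a liver pool carry no absolute level, so liver identity could not be read from marker levels. In bulk liver, fewer cells of a type and less RNA per cell cannot be told apart. All 20 females lay below every male for the Y-linked genes Eif2s3y and Kdm5d, as their labels require. The labels give no clock time of death.

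When sterols are plentiful, INSIG proteins bind SCAP and keep the SCAP-SREBP complex in the endoplasmic reticulum. When sterols are scarce, the complex moves to the Golgi, where proteases release the active SREBP, the transcription factor of the sterol and fatty acid synthesis genes. Insig1 is itself an SREBP target. In mouse liver, Insig2 also has a transcript, Insig2a, that rises in fasting and falls with insulin, and its daily rhythm has been linked to the clock repressor Nr1d1 (REV-ERBα).

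Insig1 lies on chromosome 5 at 28071412-28078662 and Insig2 on chromosome 1 at 121304353-121332662, both in the mouse build GRCm38.p6. The bases just upstream of their starts are shown because regulators of sterol enzymes and of clock genes bind short motifs. The genes most like Insig1 below include sterol enzymes and a clock gene, and those most like Insig2 include a clock gene. Both sequences run 5′ to 3′ along the transcribed strand and end at the base before the start, 250 bases in all, as given by RefSeq for GRCm38.p6. Capitals mark every match, on either strand, to the E-box CACGTG, the CCAAT box, the Sp1 box GGGCGG, the nuclear receptor half-site AGGTCA or the sterol element TCACNCCAC. Insig1 is at chr5:28071162-28071411 on the plus strand, and the most upstream of the 3 Insig2 starts in the RefSeq promoter table is at chr1:121332590-121332839 on the minus strand. The Insig2 gene span above reaches 121332662, so the 2 annotations do not give the same Insig2 start. Bases of this window nearest its start, with the CCAAT boxes at bases 46 to 42 and 29 to 25, lie inside that span.
Insig1: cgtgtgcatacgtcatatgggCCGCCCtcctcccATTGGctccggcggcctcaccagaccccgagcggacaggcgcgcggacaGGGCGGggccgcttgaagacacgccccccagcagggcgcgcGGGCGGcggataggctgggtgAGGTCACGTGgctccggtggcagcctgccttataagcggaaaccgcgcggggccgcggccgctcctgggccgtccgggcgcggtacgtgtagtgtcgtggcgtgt
Insig2: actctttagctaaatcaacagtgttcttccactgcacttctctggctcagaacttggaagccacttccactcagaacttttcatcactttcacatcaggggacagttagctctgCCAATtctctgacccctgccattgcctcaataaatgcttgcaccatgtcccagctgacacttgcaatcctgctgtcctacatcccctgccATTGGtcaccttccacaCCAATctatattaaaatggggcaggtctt
The Insig1 sequence held 1 E-box, at bases 101 to 96 before the start, which overlapped an AGGTCA half-site at bases 105 to 100. It also held 3 Sp1 boxes and a CCAAT box at bases 216 to 212. The Insig2 sequence held 3 CCAAT boxes and none of the other motifs, and the other 2 Insig2 starts held 1 Sp1 box each. Among 32851 promoters of the same length, 6.02% held the E-box, 14% AGGTCA, 33.8% the CCAAT box, 32.7% the Sp1 box and 1.05% the sterol element. No window searched for Insig1 or Insig2 held the sterol element. Of 15 sterol synthesis and uptake genes with such a promoter, 1 held the sterol element, 2 AGGTCA and 3 the E-box. The CCAAT box and the Sp1 box were each held by 14 of the 15. These genes came from the whole list, measured on the array or not, and a gene counted if any of its starts held the motif. The shares above count single promoters, so the gene counts cannot be set directly against them. GC content was 72.8% in the Insig1 sequence and 47.2% in the Insig2 sequence, against a median of 52.4% over all promoters. The other 2 Insig2 starts had 56.8% and 69.6%, so the Insig2 value depends on the start shown. These matches are letters in a window, not measured binding, and the sources used here do not tell which Insig2 transcripts the probe reads.

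Insig1 was low in intact females and close to the pool in every other group. The 5 intact females read -1.19, -1.48, -1.50, -0.54 and -0.90 on the log2 scale, a mean of -1.12 ± 0.41 (SD, n = 5). The 5 intact males read -0.38, -0.20, -0.27, 0.25 and -0.03, a mean of -0.13 ± 0.25 (SD, n = 5). Every intact female lay below every intact male. Insig1 was thus 2.00-fold lower in intact females than in intact males, a log2 difference of -0.997 ± 0.24 (SE from the fit to all 40 arrays). This was 1 of the 2 genes without overlap in that direction, as were 4.08% of all probes. Leaving out any 1 animal kept the difference between -1.14 and -0.90.

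Ovariectomy was the gonadectomy with the larger Insig1 difference. Ovariectomized females on placebo read -0.11, 0.14, 0.73, -0.19 and -0.82, a mean of -0.05 ± 0.56 (SD, n = 5). The placebo females averaged 2.10-fold above intact females, a difference of 1.07 ± 0.24 (SE), and 4 of the 5 lay above every intact female. The exception was animal 20, which at -0.82 fell inside the range of the intact females. Leaving out 1 animal at a time gave 0.88 to 1.27.

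Castrated males on placebo read -0.46, 0.38, -0.15, 0.05 and -0.20 for Insig1, a mean of -0.08 ± 0.31 (SD, n = 5). They differed from intact males by 0.05 ± 0.24 (SE), and the groups overlapped. The gonadectomy difference in females minus that in males was 1.02 ± 0.34 (SE), which was not tested because Insig1 was picked with these values known. On placebo, ovariectomized females and castrated males differed by 0.03 ± 0.24 (SE), so the Insig1 gap between the intact sexes was not seen after gonadectomy.

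Neither hormone brought Insig1 of gonadectomized mice near the level of intact females. Ovariectomized females on estradiol read -0.50, 0.12, 0.49, -0.30 and -0.25, a mean of -0.09 ± 0.40 (SD, n = 5), against the placebo mean of -0.05. The difference was -0.04 ± 0.24 (SE). All 5 estradiol-treated females lay above every intact female, a 2.05-fold difference in means, as did 0.874% of all probes in that direction.

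Ovariectomized females on DHT read 0.29, -0.06, -0.18, 0.85 and 0.24 for Insig1, a mean of 0.23 ± 0.40 (SD, n = 5). They differed from placebo females by 0.28 ± 0.24 (SE), with overlap, and 3 of 5 lay above the placebo mean. The difference was 0.08 without animal 20, 0.12 without animal 53 and 0.47 without animal 18. Against intact females the DHT group was 2.55-fold higher without overlap, as were 2.6% of all probes.

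Castrated males on DHT read -0.52, -0.09, 0.39, -0.35 and 0.62, a mean of 0.01 ± 0.48 (SD, n = 5), and differed from castrated males on placebo by 0.09 ± 0.24 (SE). Castrated males on estradiol read 0.30, 0.07, 0.65, 0.19 and 0.02, a mean of 0.25 ± 0.25 (SD, n = 5). All 5 estradiol-treated castrates lay above the placebo mean, a difference of 0.32 ± 0.24 (SE), but only 1 lay above every placebo male. The estradiol difference in ovariectomized minus castrated mice was -0.36 ± 0.34 (SE), and the DHT difference was 0.19 ± 0.34 (SE).

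**Figure D1:**
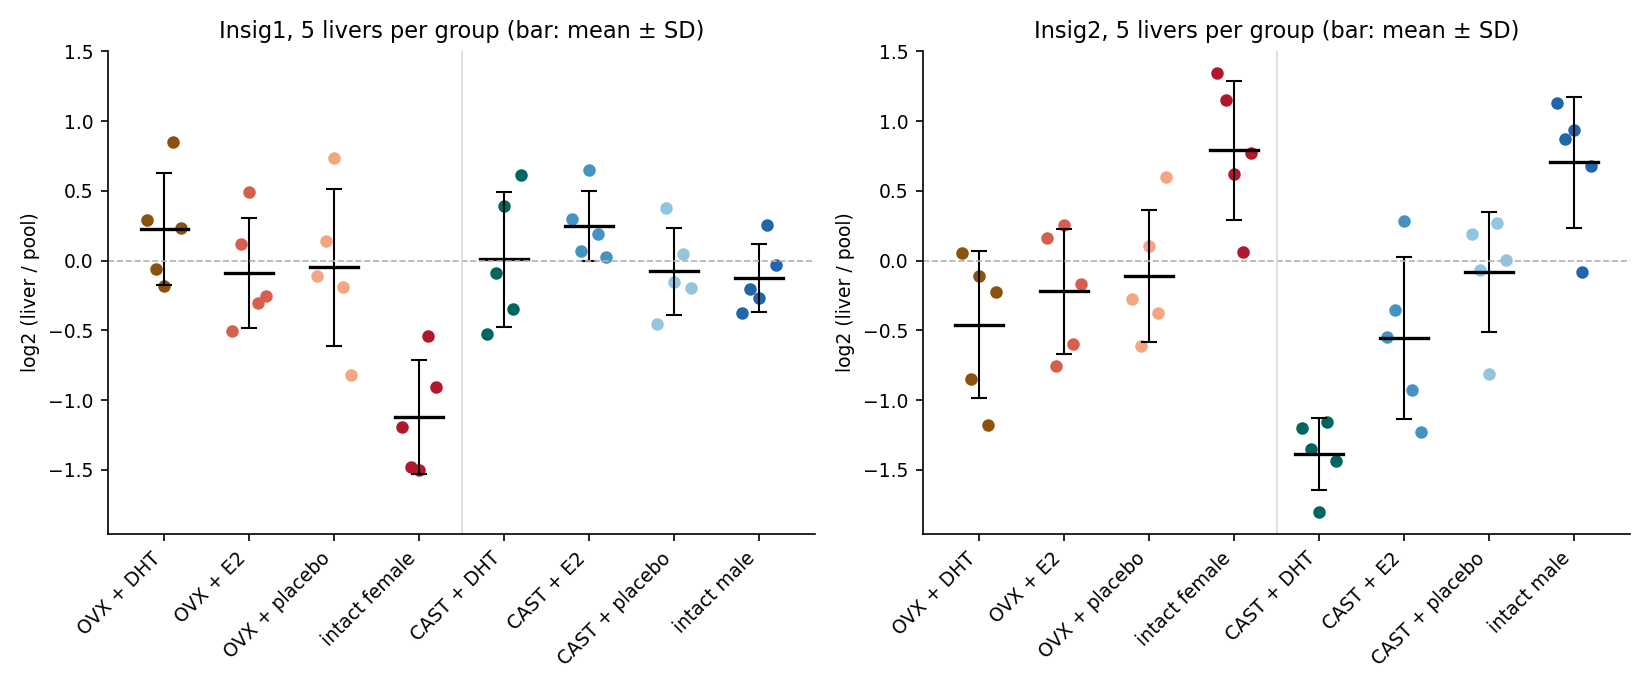
Log2 ratio of liver to pool for Insig1 (left) and Insig2 (right); each point is 1 liver, and the black bar and whiskers give the mean and SD of 5 livers (OVX, ovariectomized; CAST, castrated; E2, estradiol). For Insig1 the intact females, with a mean of -1.12, stand below the other 7 groups, whose means run from -0.13 to 0.25. For Insig2 both intact groups are highest and the castrated males on DHT are lowest.

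Insig2 was highest in the intact mice of both sexes and lowest in castrated males on DHT. The intact females read 1.35, 1.15, 0.62, 0.06 and 0.77, a mean of 0.79 ± 0.50 (SD, n = 5). The intact males read 1.13, 0.87, 0.94, -0.08 and 0.68, a mean of 0.71 ± 0.47 (SD, n = 5). The sexes overlapped almost fully, with a difference of 0.08 ± 0.28 (SE). That difference was 0.37 with quantile normalization and ran from -0.11 to 0.27 without 1 animal, below 0 without animal 1, 2 or 11, so its sign was not settled. The lowest intact female was animal 4, at 0.06 with the next at 0.62. The lowest intact male was animal 11, at -0.08 with the next at 0.68.

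Insig2 was lower in gonadectomized mice on placebo than in intact mice of both sexes, for which the labels name neither surgery nor pellet. Ovariectomized females on placebo read -0.27, -0.61, 0.11, -0.37 and 0.60, a mean of -0.11 ± 0.47 (SD, n = 5). That was 1.87-fold below intact females, a difference of -0.90 ± 0.28 (SE), and 3 of the 5 lay below every intact female. Castrated males on placebo read 0.19, -0.06, -0.81, 0.27 and 0.01, a mean of -0.08 ± 0.43 (SD, n = 5). That was 1.73-fold below intact males, a difference of -0.79 ± 0.28 (SE), though only 1 castrate lay below every intact male, since animal 11 was low. Both groups therefore overlapped with their intact counterparts. Without 1 animal the difference ran from -1.08 to -0.76 in females and from -0.99 to -0.61 in males. With quantile normalization it was -0.96 in females and -0.53 in males. The difference in females minus that in males was -0.11 ± 0.40 (SE), and the placebo groups of the 2 sexes differed by -0.03 ± 0.28 (SE).

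DHT in castrated males gave the largest Insig2 difference of the 8 comparisons. The castrated males on DHT read -1.20, -1.35, -1.80, -1.15 and -1.43, a mean of -1.39 ± 0.26 (SD, n = 5). All 5 lay below every castrated male on placebo, a 2.47-fold lower mean and a difference of -1.31 ± 0.28 (SE). Insig2 was the 1 of the 2 genes without overlap here, as were 1.97% of all probes in that direction. Leaving out any 1 animal gave -1.49 to -1.20. Set against intact males, castrated males on DHT were 4.27-fold lower, again without overlap, as were 2.35% of all probes. Castrated males on DHT thus lay farther from intact males than castrated males on placebo did.

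The other hormone groups were spread between these extremes for Insig2. Ovariectomized females on DHT read 0.06, -0.85, -0.11, -1.18 and -0.22, a mean of -0.46 ± 0.53 (SD, n = 5). They overlapped with placebo females, with a difference of -0.35 ± 0.28 (SE), but all lay below every intact female, a 2.38-fold lower mean, as did 2.8% of all probes. The difference from placebo females was -0.17 without animal 20 or without animal 53, and ran to -0.48 over the 10 fits that left out 1 animal. The DHT difference in ovariectomized minus castrated mice was 0.96 ± 0.40 (SE), which was not tested.

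Ovariectomized females on estradiol read 0.16, -0.75, 0.26, -0.60 and -0.17 for Insig2, a mean of -0.22 ± 0.45 (SD, n = 5). They differed from placebo females by -0.11 ± 0.28 (SE). Castrated males on estradiol read -0.55, -0.35, 0.29, -0.93 and -1.23, a mean of -0.55 ± 0.58 (SD, n = 5). They differed from castrated males on placebo by -0.47 ± 0.28 (SE), with overlap, and 1 of the 5 was above every placebo male. Without 1 animal it ran from -0.68 to -0.30, the last without animal 46. The estradiol difference in ovariectomized minus castrated mice was 0.36 ± 0.40 (SE).

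Ordered by group mean, Insig1 showed 1 step larger than the SDs of its neighbours, the gap of 1.00 between intact males and intact females. The other 6 gaps between neighbours ran from 0.01 to 0.22 and were below the larger SD of each pair. Insig2 showed 2 such steps, a gap of 0.83 between castrated males on estradiol and castrated males on DHT, and a gap of 0.79 between intact males and castrated males on placebo. Each pair of neighbours in Insig2 overlapped in single livers. Group means spanned 1.37 log2 units for Insig1 and 2.18 for Insig2. The SD over all 40 livers was 0.54 for Insig1 and 0.79 for Insig2, larger than those of 98.3% and 99.3% of probes.

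**Figure D2:**
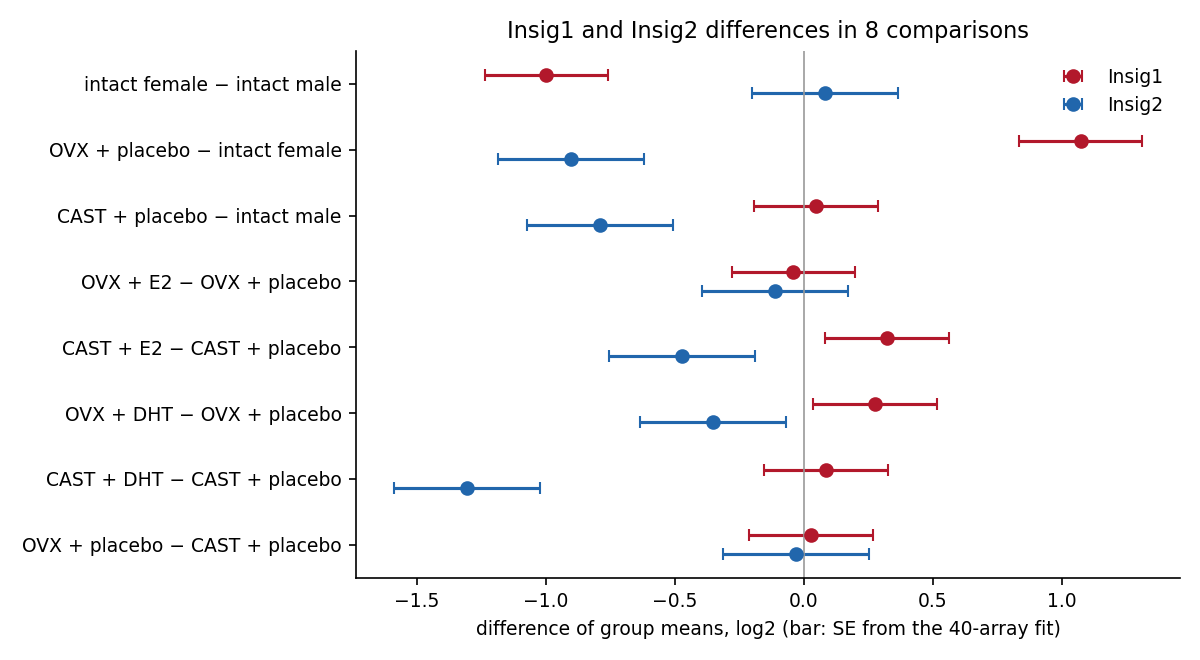
Difference of group means (log2, horizontal axis) for Insig1 (red) and Insig2 (blue) in 8 comparisons, with the first-named group minus the second; whiskers are SEs from the fit to all 40 arrays (OVX, ovariectomized; CAST, castrated; E2, estradiol). Insig1 departs most from 0 in intact females against intact males (-0.997) and in ovariectomized females on placebo against intact females (1.07), and Insig2 in castrated males on DHT against placebo (-1.31). Comparisons that share a group, such as the 3 that use castrated males on placebo as their second group, are not independent.

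The 2 genes tended to run in opposite directions. Over the 40 livers Pearson's r between Insig1 and Insig2 was -0.51 and Spearman's rho was -0.43. With the group means removed r was -0.28, and without the 2 livers farthest from the Insig1 median it was -0.43. These values are descriptions, because all livers share the pool as reference and fall into 8 groups. All 5 intact females combined an Insig1 ratio below the pool with an Insig2 ratio above it. Castrated males on DHT all had a low Insig2, with Insig1 on both sides of the pool. In 8 livers both genes held an extreme of their group, in opposite directions in 5 and in the same direction in 3. Insig1 was highest and Insig2 lowest in animal 53 of the ovariectomized females on DHT (0.85 and -1.18), animal 4 of the intact females (-0.54 and 0.06) and animal 11 of the intact males (0.25 and -0.08). Insig1 was lowest and Insig2 highest in animal 20 of the ovariectomized females on placebo (-0.82 and 0.60) and animal 8 of the intact males (-0.38 and 1.13). Both were highest in animal 35 of the ovariectomized females on estradiol (0.49 and 0.26) and animal 44 of the castrated males on estradiol (0.65 and 0.29), and both were lowest in animal 46 of the castrated males on estradiol (0.02 and -1.23).

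**Figure D3:**
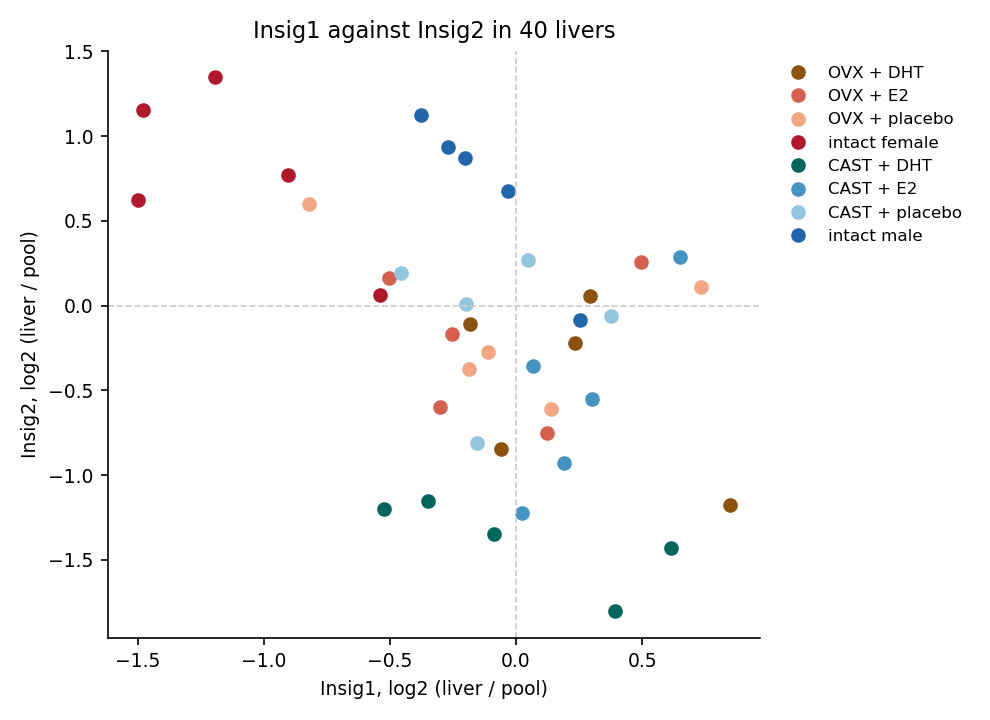
Insig1 (horizontal) against Insig2 (vertical), both as log2 ratio of liver to pool, with 1 point per liver and colours for the 8 groups (OVX, ovariectomized; CAST, castrated; E2, estradiol). Intact females lie at the upper left, intact males at the top with Insig1 near the pool, and castrated males on DHT along the bottom.

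The sterol synthesis and uptake genes gave few calls of their own. Of 23 listed genes 14 were named on the array, and a gene was called at an adjusted p under 0.05 in limma's moderated test, two-sided, with Benjamini-Hochberg adjustment over all 23574 probes. In intact females against intact males, 1 of the 14 fell and 0 rose, while 8.69% of all probes were called, so the share was close to that of all probes. The sterol median difference was -0.17, against 0.01 over all probes, and 13 of 14 differences lay below 0. Fdps, the farnesyl diphosphate synthase, fell to -0.53 ± 0.42 in intact females, against 0.23 ± 0.46 in intact males (SD, n = 5 each), a limma difference of -0.76 ± 0.25 (SE; adjusted p = 0.0478). Its 3 other probes gave -0.60, -0.21 and 0.01. The Fdps call was lost without any 1 of animals 1, 2, 3, 8, 10, 11 and 12, and the difference ran from -0.94 to -0.62 over the 10 fits that left out 1 animal.

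Members of the list that most resemble Insig1 had the same sign as Insig1 without passing. They were picked by their correlation with Insig1 over all livers, which include both intact groups. A shared sign therefore follows in part from that choice and is not separate evidence about the sterol genes. Sqle, squalene epoxidase, averaged -1.46 ± 0.77 in intact females, against -0.42 ± 0.40 in intact males (SD, n = 5 each), a limma difference of -1.04 ± 0.38 (SE; adjusted p = 0.0889). Idi1, the isopentenyl diphosphate isomerase, averaged -0.43 ± 0.18 in intact females, against 0.05 ± 0.11 in intact males (SD, n = 5 each), with no overlap and an adjusted p of 0.0526 in limma. Fdft1, squalene synthase, differed by -0.52 ± 0.23 (SE; limma adjusted p = 0.168).

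In ovariectomized females on placebo against intact females limma called 0 of the 14 sterol genes, and 5 had an unadjusted p under 0.05. Only 0.0339% of all probes passed there, and 5.05% had an unadjusted p under 0.05. The sterol median was 0.24, against -0.01 over all probes, and 13 of 14 differences lay above 0. Fdft1 averaged -0.13 ± 0.47 in placebo females, against -0.88 ± 0.38 in intact females (SD, n = 5 each), a difference of 0.75 ± 0.23 (SE; limma adjusted p = 0.42).

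In castrated males on placebo against intact males 1 of the 14 fell and 0 rose, against 12.1% of all probes called. It was Hsd17b7, which acts late in cholesterol synthesis and fell by 0.54 on the log2 scale (SE 0.17; limma adjusted p = 0.0301), to -0.14 ± 0.29 in castrates, against 0.41 ± 0.37 in intact males (SD, n = 5 each). The Hsd17b7 call was lost without any 1 of animals 8, 9, 12, 26 and 27, with differences of -0.70 to -0.43 over the 10 fits. The sterol median there was 0.04, against 0.02 over all probes.

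In the remaining comparisons limma called 0 of the 14 sterol genes. Estradiol after ovariectomy had 0.632% of all probes called, and 1 sterol gene had an unadjusted p under 0.05, as did 10.8% of all probes; the sterol median was 0.07. Estradiol after castration had 1.18% of all probes called, and 5 sterol genes had an unadjusted p under 0.05, as did 13.7% of all probes, with a median of 0.11. DHT after ovariectomy had 1.15% called, and 1 sterol gene against 11.3% of all probes had such a p, with a median of 0.09. DHT after castration, with the largest Insig2 difference, had 3.47% called, and 3 sterol genes against 15.8% of all probes had such a p, with a median of 0.18. Placebo females against placebo castrates had 0.0679% called, and 0 sterol genes against 5.42% of all probes had such a p, with a median of 0.05. With limma array weights the count was 1 for DHT after castration and 0 in the other 4.

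**Figure D4:**
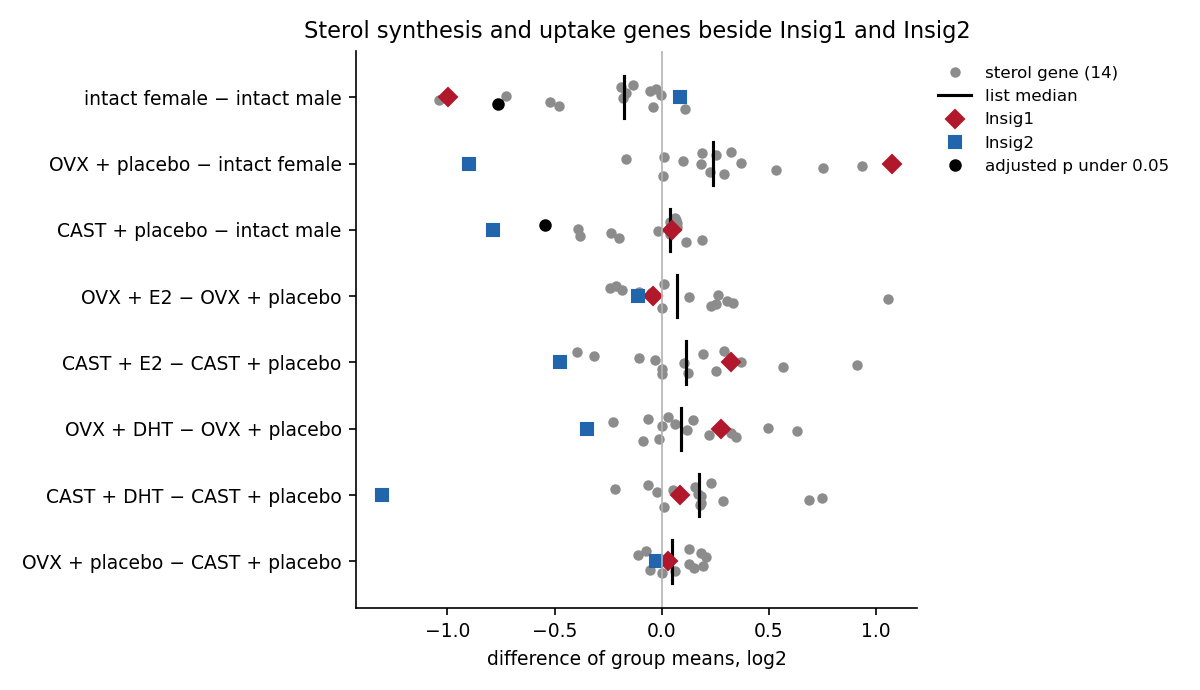
Log2 difference of group means (horizontal axis) for the 14 sterol synthesis and uptake genes (grey; black where adjusted p is under 0.05), their median (black bar), Insig1 (red diamond) and Insig2 (blue square) in 8 comparisons, first-named group minus the second (OVX, ovariectomized; CAST, castrated; E2, estradiol). The list median lies at -0.17 in intact females against intact males and at 0.24 in ovariectomized females on placebo against intact females, the same sides as Insig1. Fdps and Hsd17b7 are the 2 calls.

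Among the partners of the INSIG proteins, Erlin1 moved most often. Of 19 listed genes of the SREBP and INSIG machinery 12 were named. Erlin1, a cholesterol-binding protein of the endoplasmic reticulum that restrains SREBP, averaged -0.55 ± 0.14 in intact females, against 0.07 ± 0.14 in intact males (SD, n = 5 each). It fell without overlap, by 0.62 on the log2 scale (SE 0.12; limma adjusted p = 0.000284), the only call among the 12, beside 8.69% of all probes called.
In castrated males on placebo 3 of the 12 fell and 0 rose, beside 12.1% of all probes called. Nploc4, a cofactor of the ATPase that pulls proteins out of the membrane, differed by -0.18 ± 0.05 (SE; limma adjusted p = 0.01), and Erlin1 by -0.39 ± 0.12 (SE; adjusted p = 0.0201). Scap, the direct INSIG partner, averaged -0.14 ± 0.17 in castrates, against 0.15 ± 0.08 in intact males (SD, n = 5 each), a difference of -0.29 ± 0.10 (SE; adjusted p = 0.0498). The Erlin1 call was lost without animal 8 or 24, with differences of -0.46 to -0.31. The Scap call was lost without any 1 of animals 8, 9, 10, 11, 12, 25, 27 and 28, with differences of -0.33 to -0.24.

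Erlin1 rose with either hormone in castrated males. It averaged 0.30 ± 0.15 on estradiol, against -0.32 ± 0.21 on placebo (SD, n = 5 each), a difference of 0.62 ± 0.12 (SE; limma adjusted p = 0.0044). On DHT it averaged 0.21 ± 0.20, against the same placebo group, a difference of 0.54 ± 0.12 (SE; limma adjusted p = 0.0058). It was the 1 call of the 12 in each comparison, beside 1.18% of all probes with estradiol and 3.47% with DHT, and both share their placebo castrates. Limma called 0 of the 12 in the other 4 comparisons, with 3 genes at an unadjusted p under 0.05 with ovariectomy (5.05% of all probes), 4 with estradiol after ovariectomy (10.8%), 2 with DHT after ovariectomy (11.3%) and 3 between the placebo groups of both sexes (5.42%).
Srebf1, which encodes the SREBP of fatty acid synthesis, averaged 0.58 ± 0.29 in castrated males on DHT, against -0.17 ± 0.37 on placebo (SD, n = 5 each), without overlap and with a limma adjusted p of 0.0665. Srebf2, which encodes the SREBP of sterol synthesis, differed there by -0.05 ± 0.14 (SE; adjusted p = 0.961). Mbtps1, the first of the proteases that release SREBP, passed in none of the 8 comparisons.

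Fatty acid synthesis genes, the targets of SREBP-1, gave more calls in castrated males on placebo against intact males than in any other of the 8 comparisons. Of 13 measured genes 4 rose and 0 fell there, 30.8% against 12.1% of all probes called, and Insig1 differed by 0.05. Pnpla3, a lipid droplet acyltransferase and SREBP-1 target, averaged 0.25 ± 0.09 in castrates, against -0.12 ± 0.07 in intact males (SD, n = 5 each; limma adjusted p = 0.000728), and the groups did not overlap. Acaca, acetyl-CoA carboxylase, differed by 0.70 ± 0.14 (SE; limma adjusted p = 0.000573), while its other probes gave 0.12 and 0.17. In intact females against intact males limma called 1 higher, beside 8.69% of all probes called. It called 2 lower with estradiol after ovariectomy, 15.4% against 0.632% of all probes. It called 1 lower with estradiol after castration (1.18%), 2 lower with DHT after castration (3.47%) and 0 in the other 3 comparisons. With estradiol after ovariectomy all 13 differences lay below 0, with a median of -0.41, and 8 had an unadjusted p under 0.05 (10.8% of all probes). After castration estradiol gave 12 of 13 below 0, a median of -0.30 and 7 such p-values (13.7%). Castrated males on placebo against intact males had 12 of 13 above 0, a median of 0.37 and 6 such p-values (26.2%). Unadjusted p-values under 0.05 numbered 4 with ovariectomy, beside 5.05% of all probes, where 12 of 13 differences lay above 0. They numbered 2 with DHT after ovariectomy (11.3% of all probes) and 1 between the placebo groups (5.42%).

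A few genes of the fasting response moved in comparisons described for Insig2, and their part in the result was not tested. Pdk4, the kinase that shuts off pyruvate dehydrogenase in fasting, averaged 1.51 ± 0.65 in intact females, against -0.18 ± 0.43 in intact males (SD, n = 5 each), and rose by 1.69 ± 0.25 (SE; limma adjusted p = 1.13e-05). With Fgf21, a fasting hormone of the liver, it made 2 of 11 measured genes that rose there, beside 8.69% of all probes called, and 0 fell; the Fgf21 difference of 0.34 lost its call without any 1 of animals 2, 5 and 9, over a range of 0.25 to 0.44. Insig2 differed by 0.08 in that comparison.
In ovariectomized females on placebo against intact females 1 of the 11 fell, Pdk4, by 1.32 on the log2 scale (SE 0.25; limma adjusted p = 0.0387), and 0 rose, beside 0.0339% of all probes called. This call was lost without any 1 of animals 1, 2, 4, 16, 17, 18 and 19, with differences of -1.49 to -1.12. All 11 differences lay below 0, as did Insig2, with a median of -0.28.
In castrated males on placebo against intact males 3 of 11 fell and 0 rose, beside 12.1% of all probes called. G6pc, the enzyme that releases glucose, averaged -0.26 ± 0.58 in castrates, against 0.94 ± 0.54 in intact males (SD, n = 5 each; limma adjusted p = 0.00662). Irs2, an insulin receptor substrate raised in fasted liver, differed by -1.07 ± 0.30 (SE; adjusted p = 0.0135), while its other probe gave -0.11. Angptl4, a fasting-induced inhibitor of lipoprotein lipase, differed by -0.51 ± 0.16 (SE; adjusted p = 0.0286), and its call was lost without any 1 of animals 8, 9, 25 and 28, with differences of -0.59 to -0.41.
With DHT after ovariectomy Pdk4 was the 1 gene of the 11 that fell, by 1.09 on the log2 scale (SE 0.25; limma adjusted p = 0.0218), beside 1.15% of all probes called. It lost its call without any 1 of animals 18, 20, 51, 52 and 54, with differences of -1.17 to -0.93. In castrated males limma called 0 of the 11 with DHT and 0 with estradiol, although 6 had an unadjusted p under 0.05 in each, beside 15.8% of all probes with DHT and 13.7% with estradiol. Estradiol after ovariectomy and the placebo groups of both sexes also gave 0 calls, with 2 genes each at an unadjusted p under 0.05, beside 10.8% and 5.42% of all probes.

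Single clock genes were called in 4 of the 8 comparisons, and their part in the Insig2 result was not tested. In castrated males on DHT Arntl, which encodes the clock activator BMAL1, averaged -1.26 ± 0.18, against 0.12 ± 0.73 on placebo (SD, n = 5 each). It fell without overlap, by 1.38 on the log2 scale (SE 0.26; limma adjusted p = 0.00162). Per2, a clock repressor, averaged 0.69 ± 0.22 on DHT, against -0.53 ± 0.75 on placebo (SD, n = 5 each), and rose by 1.22 ± 0.30 (SE; limma adjusted p = 0.0155). Without animal 24 the Per2 call was lost, and the differences ran from 0.95 to 1.47. These were the 2 calls among 14 measured clock genes in the comparison with the largest Insig2 difference, 14.3% against 3.47% of all probes. The list median was 0.03, with 8 differences above 0 and 6 below.
In the comparison with the largest Insig1 difference 1 clock gene was called. Nr1d1 averaged 0.38 ± 0.25 in ovariectomized females on placebo, against -0.78 ± 0.49 in intact females (SD, n = 5 each), and rose without overlap by 1.16 ± 0.22 (SE; limma adjusted p = 0.0387), the 1 call among 14, beside 0.0339% of all probes. The list median was -0.01, with 6 differences above 0 and 8 below, over a range of -1.17 to 1.16. In limma 6 of the 14 had an unadjusted p under 0.05, beside 5.05% of all probes. The Nr1d1 call was lost without any 1 of animals 1, 2, 3, 4, 16, 17 and 19, with differences of 1.06 to 1.36.
In intact females against intact males 2 of the 14 fell and 0 rose, 14.3% against 8.69% of all probes. Nr1d2, the close relative of Nr1d1, fell by 0.67 on the log2 scale (SE 0.17; limma adjusted p = 0.0084), while its other probe gave 0.07. Nr1d1 fell by 0.73 (SE 0.22; limma adjusted p = 0.029), lost without any 1 of animals 2, 3, 4, 10, 11 and 12, with differences of -0.93 to -0.63.
In castrated males on placebo against intact males 2 of 14 fell, 14.3% against 12.1% of all probes, a share near that of all probes. They were Rora, a clock activator of the nuclear receptor family, by 0.60 (SE 0.17; limma adjusted p = 0.0185), and Nfil3, a repressor in clock output, by 0.61 (SE 0.20; limma adjusted p = 0.0338). The Rora call was lost without animal 8 or 26, with differences of -0.76 to -0.49, and the Nfil3 call without any 1 of animals 8, 9, 10, 12, 25, 26 and 28, with differences of -0.81 to -0.40. Limma called 0 clock genes in the other 4 comparisons. There 0 genes had an unadjusted p under 0.05 with estradiol after ovariectomy (10.8% of all probes), 5 with estradiol after castration (13.7%), 4 with DHT after ovariectomy (11.3%) and 1 between the placebo groups (5.42%).

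Of the 5 genes most like Insig1 across the 40 livers 4 were enzymes of cholesterol synthesis, and the other was the clock receptor Nr1d2. Likeness was Pearson's r with the gene's probe over 10655 named genes, and it is given without a test, since the genes were ranked by it and all livers share the pool and fall into groups. Highest were Fdft1 (r = 0.80), Sqle (0.77), Nr1d2 (0.75), Idi1 (0.73) and Lss, lanosterol synthase (0.66). With the group means removed r stayed at 0.72 for Fdft1 and 0.72 for Sqle, and was 0.64 for Idi1, 0.51 for Lss and 0.45 for Nr1d2. The other Nr1d2 probe gave -0.14.
Across the whole sterol list, 11 of 14 genes had r above 0 with Insig1, with a median of 0.59, or 0.45 with the group means removed, against a median of -0.03 over all ranked genes. The exceptions were Ebp (-0.26), Hsd17b7 (-0.09) and Mvk (-0.03). Srebf2 gave 0.39, or 0.64 with the group means removed, Srebf1 gave 0.49 and 0.42, and Scap gave -0.23 and -0.16.

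Lowest with Insig1 were Cstf1, a subunit of the mRNA cleavage stimulation factor (r = -0.71), Hilpda, a lipid droplet protein (-0.69), Angptl4 (-0.68), Emb, embigin (-0.66), and Irs2 (-0.65). Removing the group means left -0.57 for Cstf1, -0.47 for Angptl4, -0.37 for Irs2, -0.35 for Hilpda and -0.08 for Emb. All 11 fasting genes had r below 0 with Insig1, with a median of -0.52, or -0.16 with the group means removed. Pdk4 gave -0.64 over the 40 livers and -0.02 with the group means removed.

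The gene most like Insig2 encodes a mitochondrial protease subunit. Clpx, the chaperone subunit of the ClpXP protease, had r = 0.93 over the 40 livers, 0.86 with the group means removed and 0.91 at its other probe. Its group means ran from -1.29 in castrated males on DHT to 0.88 in intact females. Next were Slc16a1, a lactate and ketone body transporter (0.85), Rabgef1, an exchange factor for the endosomal Rab5 (0.85), Arntl (0.84) and Ddc, aromatic amino acid decarboxylase (0.83). With the group means removed these 4 gave 0.52, 0.58, 0.53 and 0.52.
Lowest were Osbpl2, of the oxysterol-binding protein family (-0.86), Slc9a3r1, a membrane scaffold (-0.83), Usp2, a deubiquitinase (-0.83), Ngef, a guanine nucleotide exchange factor (-0.81), and Per2 (-0.81). With the group means removed they ran from -0.66 for Ngef to -0.53 for Per2. Srebf1 followed at -0.81, or -0.60 with the group means removed, and Fdft1 gave -0.78 and -0.64.
Nr1d1 itself gave -0.12 with Insig2. Of the 14 clock genes 4 had r above 0 with Insig2 and 10 below, with a median of -0.14, or -0.03 with the group means removed. Across the fasting list all 11 genes had r above 0 with Insig2, with a median of 0.51, or 0.15 with the group means removed, against -0.02 over all ranked genes. Of the 14 sterol genes 12 had r below 0 with Insig2, with a median of -0.27, or -0.19 with the group means removed.

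**Figure D5:**
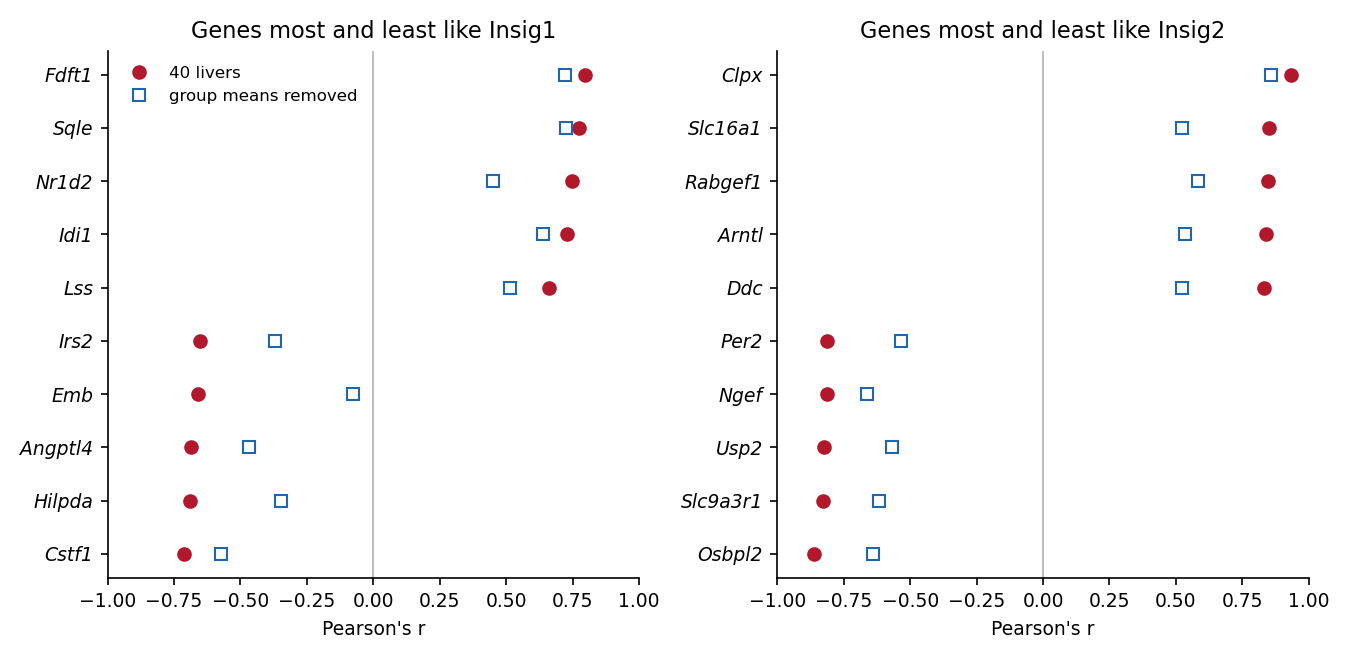
Pearson's r (horizontal axis) over 40 livers with Insig1 (left) and Insig2 (right) for the 5 genes of highest and the 5 of lowest r among 10655 named genes; filled circles use the 40 livers and open squares the same livers with the group means removed. Every square lies closer to 0 than its circle; Fdft1, Sqle and Clpx keep r above 0.7.

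Some markers of the cell types in liver differed in the same comparisons, and their part in the results was not tested. For castrated males on DHT against placebo, the mean log2 ratio over 6 hepatocyte markers ran from -0.31 to 0.06 in DHT livers, against -0.24 to -0.06 in placebo livers, and 0 of 6 were called. Of the markers of other cells, 0 of 8 Kupffer cell, 0 of 3 bile duct and 0 of 6 lymphocyte genes were called there, while 1 of 7 endothelial genes (Tek) and 1 of 6 stellate cell genes (Pdgfrb) fell, beside 3.47% of all probes called. Tek differed by -0.25 to -0.20 and Pdgfrb by -0.54 to -0.38 over the fits that left out 1 animal; the Tek call was lost without any 1 of animals 25, 27 and 59, and the Pdgfrb call without any 1 of animals 24, 25, 26, 27, 59, 60, 62 and 63.
For intact females against intact males, the hepatocyte mean ran from -0.21 to 0.18 in females, against -0.04 to 0.19 in males. Of the 6 hepatocyte differences 5 lay below 0 and 1, that of Ttr, above 0, with a median of -0.15. In limma 4 of the 6 had an unadjusted p under 0.05, beside 21.9% of all probes. Called there, all higher in females, were 1 of 6 hepatocyte genes (Ttr), 1 of 7 endothelial genes (Tek), 1 of 6 stellate cell genes (Reln), 2 of 6 lymphocyte genes (Cd3d and Cd2), 0 of 8 Kupffer cell genes and 0 of 3 bile duct genes, beside 8.69% of all probes called, the last 2 lists with 1 gene each at an unadjusted p under 0.05 in limma. The Ttr call was lost without animal 10 (0.47), the Tek call without animal 2 (0.16), the Cd3d call without animal 5 (0.22) or 9 (0.21) and the Cd2 call without any 1 of animals 3, 4, 5, 8, 9, 10 and 11 (0.38 to 0.60 over the 10 fits). The stellate cell mean ran from -0.18 to 0.16 in females, against -0.21 to -0.03 in males, and the lymphocyte mean from -0.10 to 0.25 in females, against -0.22 to 0.01 in males.
For ovariectomized females on placebo against intact females limma called 0 markers of any of the 6 lists; 1 hepatocyte and 1 stellate cell gene had an unadjusted p under 0.05, as did 5.05% of all probes.
For castrated males on placebo against intact males, where Insig2 was lower, 12.1% of all probes were called. Of 6 hepatocyte genes 2 fell, Tdo2, the tryptophan dioxygenase (-0.61), and Serpina1c, an alpha-1-antitrypsin (-0.73; lost without animal 27, over -0.82 to -0.62). The hepatocyte mean ran from -0.24 to -0.06 in castrates, against -0.04 to 0.19 in intact males, without overlap. Tek rose by 0.20 (lost without animal 25, over 0.17 to 0.22) as 1 of 7 endothelial genes, and Reln by 0.42 as 1 of 6 stellate cell genes. Of 6 lymphocyte genes 2 rose, Cd2 by 0.62 and Cd3d by 0.24 (lost without any 1 of animals 9, 11, 24, 25 and 27, over 0.19 to 0.27), and their list mean ran from 0.04 to 0.20 in castrates, against -0.22 to 0.01 in intact males. limma called 0 of 8 Kupffer cell and 0 of 3 bile duct genes, with 0 of either at an unadjusted p under 0.05.
For estradiol against placebo after ovariectomy limma called 0 of 8 Kupffer cell genes, but 7 had an unadjusted p under 0.05, against 10.8% of all probes, and the median difference was 0.88. The Kupffer cell mean ran from -0.29 to 1.73 in estradiol livers, against -0.50 to 0.11 in placebo livers. Insig1 differed there by -0.04 and Insig2 by -0.11.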

How the data were processed

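RNA of 40 mouse livers was read on 2-colour arrays, 1 per animal, and the array number limits the precision. The values are log10 ratios of liver (Cy5) to pool (Cy3), deposited by the authors for 23574 probes with 0 missing; 29 values sit at the limit of 2 or -2. Per the labels no dye was swapped. Background correction, normalization and signal over background are not given in the sources used here. Array medians ran from -0.0135 to 0.0109 in log10. The base was inferred from the values: since the pool held all livers, ratios should average 1, and over the 236 most variable probes the median of the mean ratio was 1.00 in base 10, 0.963 in base 2 and 0.957 for the natural log. Values were turned to log2.

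The platform annotation gave 13665 probes 1 symbol, 48 several and 9861 none. Of the 13665 with 1 symbol, 1003 had no RefSeq match, which left 12662 named probes. For the 1157 genes with over 1 probe, that of largest SD stood for the gene. Coordinates and promoters are RefSeq's, GRCm38.p6; protein sequences were not used here.

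Differences, SEs and tests came from 1 linear model of 8 group means (limma 3.58.1, R 4.3.3; Python 3.11.15 for summaries), with Benjamini-Hochberg adjustment over all probes and a threshold of 0.05. The model was checked on simulated data. Residual df were 32, and the median residual SD was 0.146 on the log2 scale. The labels give no batch, slide or date. Both genes and all lists were chosen with earlier results of these data known. Named genes were, for each of the pair, the 5 of highest and 5 of lowest r, a fixed set (Scap, Srebf1, Srebf2, Mbtps1, Nr1d1, Pdk4) and the called list genes of smallest adjusted p, up to 4 for the sterol list and 3 for others; Ebp, Mvk, and the Sqle, Idi1 and Fdft1 differences, were added after their values were seen. Mbtps2 and some other genes of that set are not reported here. Alternatives were quantile normalization, centring each array on its median, array weights, only the 2 groups in the fit, another probe per gene and leaving out each animal.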

Additional observations from a re-analysis of the deposited data

Results flagged for a closer look

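A liver was picked out here where the highest or lowest of 5 stood apart from its nearest neighbour by more than Dixon's 95% critical value of 0.71 of the group's range. Of 224 gene and group combinations over 28 genes 25 were picked out, where chance picks about 1 in 20. The genes were partly chosen for their likeness to Insig1 or Insig2 and are not independent of each other. No group of Insig1 or Insig2 itself was picked out. All values are log2 ratios of liver to pool.

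Animal 53, an ovariectomized female on DHT with the highest Insig1 of its group, was also apart and highest for Fdft1 (1.04), Sqle (1.21), Idi1 (0.665) and Srebf2 (0.44). In the same group animal 50 was highest for Nr1d1 (0.5). Animal 20, an ovariectomized female on placebo with the lowest Insig1 and highest Insig2 of its group, was lowest for Fdft1 (-0.952), Ngef (-1.03) and Mbtps1 (-0.186) and highest for Arntl (0.734). Animal 11, the intact male with the lowest Insig2, was lowest for Irs2 (-0.712) and highest for Osbpl2 (0.102), Slc9a3r1 (0.512), Scap (0.289) and Srebf1 (0.34).

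Among castrated males on DHT, animal 63 was highest for Nr1d2 (0.607) and Idi1 (0.836), animal 62 lowest for Emb (-0.707) and animal 61 lowest for Slc9a3r1 (0.344). Among castrated males on estradiol, animal 44 was highest for Clpx (-0.055) and animal 45 lowest for Rabgef1 (-0.492). Animal 36, an ovariectomized female on estradiol, was highest for Lss (0.377) and Hilpda (0.27). Animal 24, a castrated male on placebo, was highest for Irs2 (0.605). Among intact females animal 2 was highest for Hilpda (0.695) and animal 5 lowest for Slc16a1 (0.062).

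For 3 named genes the gonadectomy difference in females minus that in males passed limma's interaction test. The share of all probes that passed it is not given here, so this count cannot be set against a background. The difference was 3.86 for Cyp7b1, an oxysterol hydroxylase (adjusted p = 0.0141), 0.753 for Erlin1 (adjusted p = 0.00442) and -0.45 for Reln, a stellate cell marker (adjusted p = 0.0353).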

How the results depend on the processing

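Of the 16 Insig1 and Insig2 differences 9 kept their sign under quantile normalization, under centring and without any 1 animal, and 7 changed sign under at least 1 of these. The 7 are Insig1 for castration (-0.06 to 0.14 without 1 animal), estradiol after ovariectomy (-0.23 to 0.16), DHT after castration (-0.06 to 0.22) and the placebo groups of both sexes (-0.17 to 0.22; -0.06 with quantile normalization), and Insig2 for intact females against intact males (-0.11 to 0.27; 0.37 with quantile normalization), estradiol after ovariectomy (-0.24 to 0.07) and the placebo groups (-0.21 to 0.10). Each of these 7 was at most 0.11 in size with all animals. All 16 moved by less than the pooled SD of the 2 groups compared. Neither gene has another probe, so that alternative gave no value. No paired analysis was possible because each animal number occurs in 1 group.

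The sterol genes passing in intact females against intact males numbered 1, and 3 with quantile normalization, 0 with centring, 4 with array weights, and 0 to 2 without 1 animal (0 without animals 1, 3, 8, 10 or 12; 2 without animal 4 or 9). For castrated males on placebo against intact males the count of 1 became 0 with quantile normalization, 3 with array weights, 0 with only the 2 groups in the fit, and 0 to 1 without 1 animal (0 without animals 8, 9, 12, 26 or 27). For DHT after castration 0 became 1 with array weights. The cause was not tested.

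Over all probes, the calls moved by over 1.5 times in all 8 comparisons with array weights and with only the 2 groups in the fit, which uses fewer samples. Intact females against intact males gave 2048 calls, 5443 with array weights, 1249 with 2 groups and 1455 to 2604 without 1 animal. Ovariectomy gave 8, 31, 1 and 2 to 23, with 16 under quantile normalization. Castration gave 2856, 7762, 1763 and 1976 to 3687, with 1802 under quantile normalization. Estradiol after ovariectomy gave 149, 1092, 55 and 22 to 902, and after castration 278, 753, 37 and 69 to 322. DHT after ovariectomy gave 271, 1298, 545 and 89 to 443, with 757 under quantile normalization, and after castration 819, 3801, 260 and 335 to 1115. The placebo groups of both sexes gave 16, 39, 31 and 13 to 23. The cause was not tested.

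Of the 53 pairs of a named gene and a comparison that were called, 12 were called under every setting, among them Erlin1, Nr1d2 and Pdk4 in intact females against intact males and Arntl with DHT after castration. None changed sign. Calls were lost in 34 with only the 2 groups, 18 with quantile normalization, 5 with centring and 1 with array weights, and in 167 of the 530 fits that left out 1 animal. Of 20 likeness values 15 moved when the group means were removed and 1 with Spearman's rho.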
